A study of Mus musculus with 20 samples.

Results

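The 10 osteoclast and RANKL-axis genes are the genes of the deposited mouse joint table with the symbols Tnfsf11, Tnfrsf11a, Tnfrsf11b, Nfatc1, Dcstamp, Ocstamp, Atp6v0d2, Ctsk, Acp5 and Calcr. They were chosen by symbol from a total of 14793 genes, and all 10 were found, with reads in every joint. The RNA came from knee joints of 20 male C57BL/6Nci mice. Destabilization of the medial meniscus (DMM) had been performed on 1 knee at 12 weeks of age to induce osteoarthritis. The groups held 5 joints each, 1 per mouse. Control joints had a needle inserted and received no cells. The others were injected with adipose-derived mesenchymal stromal cells (MSC) that were non-activated (MSC), activated with polyinosinic-polycytidylic acid, an agonist of Toll-like receptor 3 (TLR3-MSC), or activated with 2′,3′-cGAMP, an agonist of the STimulator of INterferon Genes pathway (STING-MSC). Injections were made 3 and 5 weeks after the operation. All groups, controls included, carried the DMM injury, no unoperated or carrier-injected joints were analysed here, and the injected cells came from a single pool of donor mice. Cartilage, synovium, capsule and adjacent bone were collected as 1 piece, so each value is a mixture of many cell types.

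Osteoclasts are the multinucleated cells that resorb bone, and they form by fusion of precursors of the monocyte lineage. Osteoblast-lineage cells, osteocytes, synovial fibroblasts and T cells make RANKL (Tnfsf11), which binds its receptor RANK (Tnfrsf11a) on the precursors, and osteoprotegerin (Tnfrsf11b) is a soluble decoy that holds RANKL away from RANK. RANK signals through NF-kB and AP-1 to the transcription factor NFATc1, which switches on the genes for fusion, acid secretion and collagen breakdown, and the subchondral bone of osteoarthritic joints is a site of such remodelling.

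Expression was measured by bulk sequencing of polyA RNA and deposited as normalized read counts, in which each library was divided by a size factor. Whole reads could be recovered from these values, and each joint held 27955496 to 52529973 reads on the genes of the table. The group medians were 33230113 in control, 42283681 in MSC, 33141873 in TLR3-MSC and 31917015 in STING-MSC joints. Joint 5 of the MSC group stood apart, with 296 of 14793 genes at 0 reads against 0 to 97 in the other joints. Differences are given as log2 fold changes on the log2(normalized count + 1) scale, which understates the change of low genes, and were tested with limma over all genes. A gene passed the unadjusted threshold at a p of at most 0.05, and the false discovery rate (FDR) was adjusted over all 14793 genes.

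STING-MSC joints had the lowest mean normalized count of the 4 groups for 10 of 10 members. How many of all genes had their lowest mean in this group was not computed. On the log2 scale used for the tests, however, STING-MSC joints were above MSC joints for Tnfrsf11b (0.11), Dcstamp (0.26) and Ocstamp (0.08). Against control joints, the log2 fold change was below 0 for 10 of 10 members, compared with 48.3% of all genes, and the median was -0.50 over the members and 0.01 over all genes. Against TLR3-MSC joints it was also below 0 for 10 of 10 members, compared with 44.7% of all genes, with a median of -0.40 over the members and 0.02 over all genes. In bulk tissue, fewer cells of a type and less RNA per cell cannot be told apart. The comparisons share their control, TLR3-MSC or STING-MSC joints and are not independent of each other. The members are not independent either, since all 45 pairs had a Pearson's r above 0 within groups (median 0.62). They were also chosen with earlier results of these data known, so 10 of 10 does not stand for 10 separate results.

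No member passed an FDR of at most 0.05 in any of the 6 comparisons by limma, edgeR or DESeq2. At this threshold limma called 0.00676% of all genes, which was 1 gene, for MSC against control and 0.0% in each of the other comparisons. At the unadjusted threshold, 3 of 10 members (Tnfsf11, Tnfrsf11a and Ctsk) were lower in STING-MSC than in control joints, where 12.2% of all genes passed, 5.69% lower and 6.54% higher, and edgeR and DESeq2 each called Ocstamp besides these 3, with 13.3% and 15.2% of all genes. Tnfsf11 was the 1 member that was lower in STING-MSC than in MSC joints, where 4.94% of all genes passed (2.17% lower and 2.77% higher). Ctsk was the 1 member lower in STING-MSC than in TLR3-MSC joints, where 2.57% of all genes passed (1.78% lower and 0.784% higher). No member passed in limma for MSC against control, where 8.55% of all genes did (2.91% lower and 5.64% higher). None passed for TLR3-MSC against control, where 3.58% did (0.906% lower and 2.68% higher), or for TLR3-MSC against MSC, where 3.88% did (1.99% lower and 1.89% higher). Over all 4 groups together, Tnfsf11 alone of the 10 members passed limma's F-test at an unadjusted p of at most 0.05 (FDR = 0.755), as 6.42% of all genes did.

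**Figure D1:**
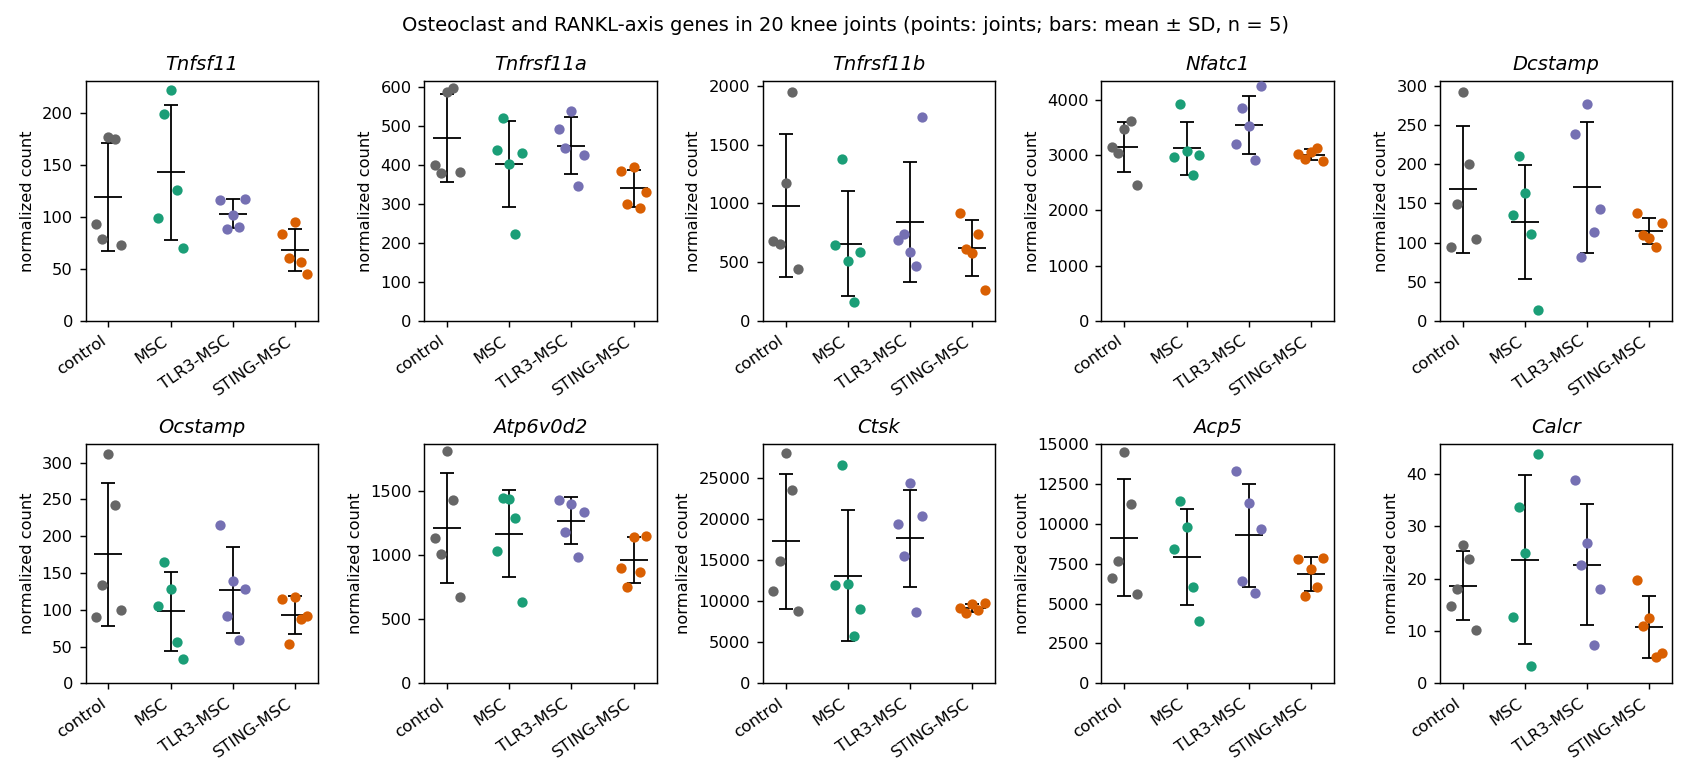
Normalized counts of the 10 members in the 20 joints, 1 panel per gene, with 1 point per joint and a bar for the mean and SD of the 5 joints of each group. The STING-MSC mean is the lowest in every panel, and the STING-MSC points lie close together for Ctsk (8517 to 9788) and Nfatc1 (2889.7 to 3132), while control joint 3 is the highest of the 20 joints for Ctsk, Acp5, Atp6v0d2, Dcstamp and Ocstamp and control joint 4 for Tnfrsf11a and Tnfrsf11b.

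Levels between genes were compared as the mean normalized count per kilobase of exon over the 20 joints. Ctsk stood at 4865 per kilobase, above 98.96% of the 14770 genes with a length, and Acp5 at 1889, above 96.6%. Atp6v0d2 (422) and Nfatc1 (420.3) were above 79.3% and 79.2% of genes, and Tnfrsf11b (257) above 67.6%. The receptor Tnfrsf11a (54.9), Dcstamp (49.1), Tnfsf11 (48.3) and Ocstamp (33.6) were above only 22.3% to 30.1% of genes. Calcr was the lowest member at 4.85 per kilobase, with 4 to 46 reads per joint, so its values carry the largest counting error. The 6 members that serve as osteoclast markers (Ctsk, Acp5, Calcr, Ocstamp, Dcstamp and Atp6v0d2) were thus all present in every joint, although Ctsk is also made by synovial fibroblasts and Atp6v0d2 by macrophages.

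The 3 members that passed the unadjusted threshold in any comparison had RefSeq promoter entries, and the 250 bases before their start sites are shown because these are the members with an unadjusted p of at most 0.05 in limma. The sequences are given 5′ to 3′ on the strand of the gene and were located in GRCm39 by exact match. Capitals mark the motifs found on either strand among those searched, which were the NFAT core GGAAA, the AP-1 site TGANTCA, the PU.1 site GAGGAA, the MITF E-boxes CACGTG and CATGTG, and the TATA box TATAAA.
Tnfsf11 (chr14:78545484-78545733, minus strand): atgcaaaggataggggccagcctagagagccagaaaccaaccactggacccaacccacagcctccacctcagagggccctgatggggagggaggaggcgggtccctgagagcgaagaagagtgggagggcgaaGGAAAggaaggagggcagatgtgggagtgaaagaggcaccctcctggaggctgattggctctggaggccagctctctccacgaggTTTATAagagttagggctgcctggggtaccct
Tnfrsf11a (chr1:105708198-105708447, plus strand): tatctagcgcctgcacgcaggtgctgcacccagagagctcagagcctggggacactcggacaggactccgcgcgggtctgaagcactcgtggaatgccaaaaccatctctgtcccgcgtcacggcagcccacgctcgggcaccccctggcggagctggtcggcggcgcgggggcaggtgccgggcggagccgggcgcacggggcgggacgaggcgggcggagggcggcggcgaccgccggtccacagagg
Ctsk (chr3:95406271-95406520, plus strand): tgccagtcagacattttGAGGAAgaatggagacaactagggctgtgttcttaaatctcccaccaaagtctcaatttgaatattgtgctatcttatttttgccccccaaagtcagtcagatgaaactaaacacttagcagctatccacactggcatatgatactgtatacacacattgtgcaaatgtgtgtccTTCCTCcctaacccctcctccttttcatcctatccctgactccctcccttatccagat
The Ctsk window held the PU.1 letters 2 times, 1 on each strand, and 23.3% of the 32851 promoter entries hold them at least once in a window of this length. The Tnfsf11 window held 1 NFAT core, present in 55.6% of promoters, and 1 TATA box on the opposite strand, present in 12.4%. None of the searched letters was in the GC-rich Tnfrsf11a window. AP-1 letters, found in 6.75% of promoters, and the E-boxes CACGTG (6.02%) and CATGTG (12.3%) were in none of the 3 windows. These matches describe letters and are not binding sites.

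Tnfsf11 (chr14:78514885-78545484, GRCm39, ENSMUSG00000022015) encodes RANKL, the ligand that starts osteoclast formation. Its normalized counts in joints 1 to 5 were 93.2, 78.5, 177, 174 and 72.8 in control and 98.5, 199, 222, 126 and 70.2 in MSC joints. In TLR3-MSC joints they were 116, 88.1, 102, 90.1 and 118, and in STING-MSC joints 83.9, 59.9, 94.9, 56.2 and 45.1. In STING-MSC, 3 of 5 joints were below every control joint and below every MSC joint, and 4 of 5 were below every TLR3-MSC joint, but the groups overlapped in each comparison. The means were 119 ± 52.2 in control, 143 ± 65.0 in MSC, 103 ± 13.9 in TLR3-MSC and 68.0 ± 20.6 in STING-MSC joints (normalized count, SD, n = 5). The difference between STING-MSC and MSC joints was -0.99 ± 0.32 on the log2 scale (SE), with an unadjusted p of 0.00556 and an FDR of 0.808 in limma and an exact permutation p of 0.0317 (two-sided, smallest possible 0.00794). It passed the unadjusted threshold in every alternative fit and with each joint left out in turn, from -1.21 to -0.80. Against control joints the difference was -0.74 ± 0.32 (limma p = 0.0292, FDR = 0.377, exact p = 0.0714), and all 5 STING-MSC joints were below the control mean. This p was above 0.05 after quantile normalization and without control joint 3 or 4 or STING-MSC joint 2, 4 or 5, with differences from -0.89 to -0.58 over all joints left out. Against TLR3-MSC joints the difference was -0.63, with a limma p of 0.0604 and an exact p of 0.0317. MSC joints held the 2 highest values of all 20 joints, and their mean did not differ from that of control joints beyond the spread (log2 difference 0.24, exact p = 0.556).

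Tnfrsf11a (chr1:105708443-105775710, ENSMUSG00000026321) encodes RANK, the receptor on osteoclast precursors. Its normalized counts were 399, 379, 587, 597 and 381 in control and 438, 520.3, 402, 223 and 431 in MSC joints. They were 492, 444, 540.3, 347 and 426 in TLR3-MSC and 386, 301, 394, 289.9 and 330.03 in STING-MSC joints. Control joints 3 and 4 were the highest of all 20, the other 3 control joints lay between 379 and 399, and 3 of 5 STING-MSC joints were below every control joint. The means were 469 ± 113 in control, 403 ± 109.9 in MSC, 449.9 ± 72.7 in TLR3-MSC and 340.1 ± 47.8 in STING-MSC joints (normalized count, SD, n = 5). STING-MSC joints were lower than control joints by a log2 difference of -0.44 ± 0.20 (limma p = 0.0395, FDR = 0.388, exact p = 0.0556), with 5 of 5 joints below the control mean. The unadjusted p was above 0.05 without control joint 3 or 4 or STING-MSC joint 2, 4 or 5, and the difference then ranged from -0.51 to -0.35 over all joints left out. Against TLR3-MSC joints the difference was -0.40 (limma p = 0.0602, exact p = 0.0317), and against MSC joints -0.20 (limma p = 0.326).

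Tnfrsf11b (chr15:54114015-54141881, ENSMUSG00000063727) encodes osteoprotegerin, the decoy receptor for RANKL. Its normalized counts were 677, 649.97, 1178, 1953 and 439.5 in control and 647, 1379, 504, 163 and 588 in MSC joints. They were 685, 738, 584, 468 and 1737 in TLR3-MSC and 914, 610.4, 581, 738 and 261 in STING-MSC joints. A single joint lay far above the rest in the TLR3-MSC group and a single joint far below the rest in the MSC group, and every pair of groups overlapped. The means were 979 ± 608 in control, 656 ± 445 in MSC, 843 ± 511 in TLR3-MSC and 621 ± 240.3 in STING-MSC joints (normalized count, SD, n = 5). Control and TLR3-MSC joints had the higher means and MSC and STING-MSC joints the lower ones. The log2 differences from control were -0.67 in MSC, -0.18 in TLR3-MSC and -0.57 in STING-MSC joints, all within the spread (unadjusted limma p of 0.195, 0.727 and 0.272).

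The count of Tnfsf11 as a percentage of that of Tnfrsf11b was taken within each joint as a description of ligand against decoy. It was 13.3 ± 2.93% in control, 32.6 ± 28.2% in MSC, 14.5 ± 5.09% in TLR3-MSC and 12.0 ± 4.43% in STING-MSC joints (SD, n = 5). The MSC mean rested on joints 3 and 4, at 44.0% and 77.3%, while the other 3 MSC joints were between 11.9% and 15.2%. In STING-MSC joints both genes had their lowest group mean and the percentage ran from 7.61% to 17.3%, overlapping the control range of 8.93% to 16.6%.

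**Figure D2:**
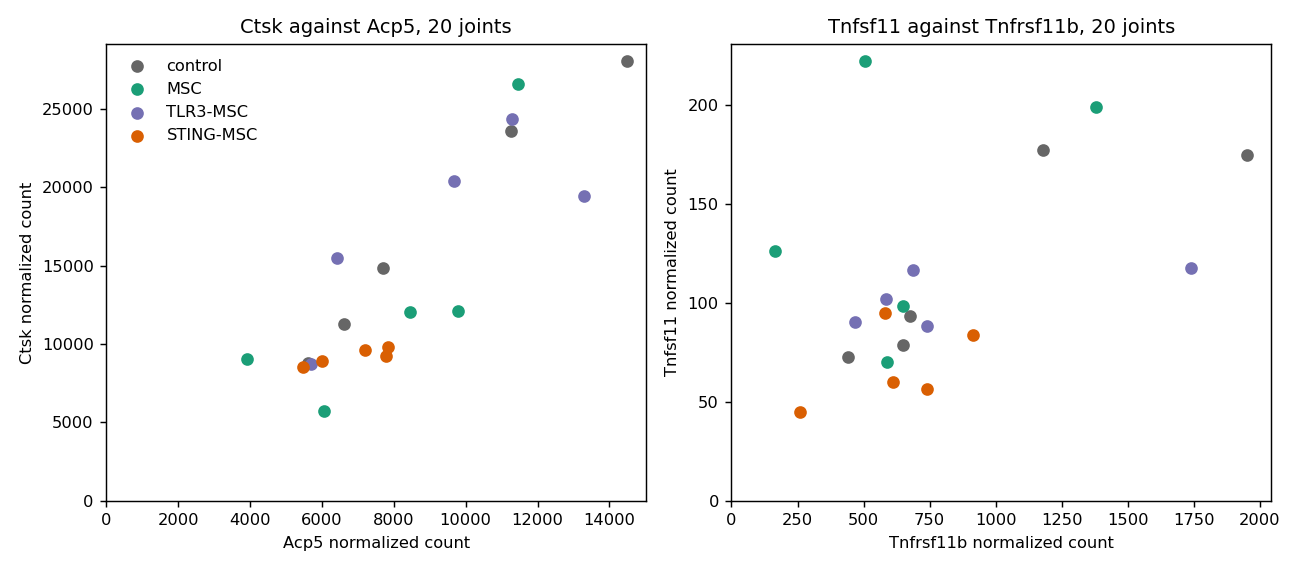
Normalized counts of Ctsk against Acp5 (left) and of Tnfsf11 against Tnfrsf11b (right) in the 20 joints, with both axes from 0 and colour for the group. Ctsk and Acp5 lie along a line. The STING-MSC joints sit together at its lower end, where joints of each other group also lie. On the right, MSC joints 3 and 4 lie above the other joints for their Tnfrsf11b level.

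Nfatc1 (chr18:80649420-80756287, ENSMUSG00000033016) encodes the transcription factor that drives the osteoclast programme, and it is also used by lymphocytes and endothelial cells. Its normalized counts were 3139.7, 3042, 3477, 3628 and 2454 in control and 2970.2, 3921, 3076, 2642 and 3005 in MSC joints. They were 3201, 3857, 3535, 2915 and 4253 in TLR3-MSC and 3026, 2931, 3054, 3132 and 2889.7 in STING-MSC joints. It varied least of all members, by 1.73-fold between the lowest and the highest of the 20 joints. The STING-MSC joints were the closest together, and TLR3-MSC joint 5 was the highest of all. The means were 3148 ± 456 in control, 3123 ± 476 in MSC, 3552 ± 528 in TLR3-MSC and 3007 ± 97.3 in STING-MSC joints (normalized count, SD, n = 5). Nfatc1 had the smallest p of the members for TLR3-MSC against control (0.17 ± 0.12, limma p = 0.149, FDR = 1.00, exact p = 0.246) and for TLR3-MSC against MSC (0.19 ± 0.12, limma p = 0.126, FDR = 0.978, exact p = 0.206), and neither difference was beyond the spread. The limma p for TLR3-MSC against MSC passed 0.05 without MSC joint 2 (0.27) or TLR3-MSC joint 4 (0.25). The log2 difference between STING-MSC and control joints was -0.05 (exact p = 0.619) and turned to 0.00033 without control joint 4, and that between STING-MSC and TLR3-MSC joints was -0.23 (exact p = 0.0556).

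Dcstamp and Ocstamp encode membrane proteins needed for osteoclast precursors to fuse, and Atp6v0d2 encodes a subunit of the proton pump that acidifies the resorption space and takes part in fusion. Ocstamp (chr2:165235680-165242326, ENSMUSG00000027670) had normalized counts of 89.98, 134, 312, 242 and 100.02 in control and 105, 165, 128, 56.9 and 33.6 in MSC joints. Its counts were 215, 92.2, 139, 59.0 and 129 in TLR3-MSC and 114, 53.8, 118, 87.5 and 91.1 in STING-MSC joints. All groups overlapped, and control joint 3 was the highest and MSC joint 5 the lowest of the 20. The Ocstamp means were 176 ± 97.1 in control, 97.8 ± 53.2 in MSC, 127 ± 58.6 in TLR3-MSC and 92.9 ± 25.6 in STING-MSC joints (normalized count, SD, n = 5). Ocstamp had the smallest p of the members for MSC against control, at -0.87 ± 0.43 (limma p = 0.0591, FDR = 0.596, exact p = 0.167). The difference passed the unadjusted threshold in DESeq2 (-0.84) and in limma without control joint 1 or 5 or MSC joint 2 or 3, and it was -0.55 without MSC joint 5, the library that stood apart. STING-MSC and control joints differed by -0.79 (limma p = 0.0853, exact p = 0.111), with 5 of 5 joints below the control mean. The same Ocstamp difference passed the unadjusted threshold in edgeR and in DESeq2 (-0.92 in both) and in limma with only these 2 groups.

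Dcstamp (chr15:39609326-39624335, ENSMUSG00000022303) ranged over 94.2 to 293 in control, 14.3 to 210.5 in MSC, 81.7 to 278 in TLR3-MSC and 94.95 to 138 in STING-MSC joints. It spread by 20.55-fold over the 20 joints, the widest of the members, because MSC joint 5 held 14 reads. The Dcstamp log2 differences against control were -0.70 in MSC, 0.00 in TLR3-MSC and -0.44 in STING-MSC joints. That of MSC joints was -0.03 without MSC joint 5 and -0.39 in edgeR. All 5 STING-MSC joints were below the control mean, at 115 ± 16.7 against 169 ± 81.3 (SD, n = 5), and no STING-MSC joint was below every control joint (limma p = 0.429, exact p = 0.222). Atp6v0d2 (chr4:19876841-19922606, ENSMUSG00000028238) ranged over 672 to 1808 in control, 636 to 1446 in MSC, 986 to 1427 in TLR3-MSC and 747 to 1148 in STING-MSC joints. Its STING-MSC mean of 962 ± 178 was below the TLR3-MSC mean of 1265 ± 183 (SD, n = 5), with 3 of 5 STING-MSC joints below every TLR3-MSC joint and a log2 difference of -0.40 (limma p = 0.11, exact p = 0.0317). The exact test and limma, both on the log2 scale, thus fell on different sides of 0.05 for this gene, as they did for Tnfsf11 and Tnfrsf11a in the same comparison. Against control the Atp6v0d2 differences were -0.04 in MSC, 0.13 in TLR3-MSC and -0.27 in STING-MSC joints.

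Ctsk (chr3:95406567-95416674, ENSMUSG00000028111) encodes cathepsin K, the protease with which osteoclasts break down bone collagen. Its normalized counts were 11246, 14864, 28022, 23585 and 8757 in control and 12021, 26562, 12127, 5757 and 9074 in MSC joints. They were 19452, 15495, 24326, 8717 and 20413 in TLR3-MSC and 9215, 8517, 9604, 8936 and 9788 in STING-MSC joints. The STING-MSC joints lay within a narrow band, with a coefficient of variation of 5.55% against 47.5% in control joints, and this band was at the lower edge of the control and TLR3-MSC ranges. Control joint 5 and TLR3-MSC joint 4 lay within the band, so 1 of 5 STING-MSC joints was below every control joint and 1 of 5 below every TLR3-MSC joint. The means were 17295 ± 8216 in control, 13108 ± 7960.2 in MSC, 17681 ± 5914 in TLR3-MSC and 9212 ± 511 in STING-MSC joints (normalized count, SD, n = 5). STING-MSC joints were lower than control joints by a log2 difference of -0.78 ± 0.36 (limma p = 0.0434, FDR = 0.395, exact p = 0.0397) and lower than TLR3-MSC joints by -0.86 ± 0.36 (limma p = 0.0265, FDR = 0.890, exact p = 0.0397). In each of these comparisons 5 of 5 STING-MSC joints were below the mean of the other group. The p against control was above 0.05 without any 1 of control joints 2, 3 and 4 or of the 5 STING-MSC joints, with differences from -0.99 to -0.57, and that against TLR3-MSC without TLR3-MSC joint 1, 3 or 5, with differences from -1.10 to -0.73. MSC joints differed from control joints by -0.45 and from STING-MSC joints by less than the spread (-0.32 for STING-MSC against MSC, exact p = 0.492).

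Acp5 and Calcr are the other surface and resorption members. Acp5 (chr9:22038023-22047008, ENSMUSG00000001348), which encodes tartrate-resistant acid phosphatase, the enzyme used to stain osteoclasts, ranged over 5616 to 14488 in control, 3919 to 11444 in MSC, 5692 to 13304 in TLR3-MSC and 5460.2 to 7829.6 in STING-MSC joints. Its means were 9129 ± 3675 in control, 7932 ± 2989 in MSC, 9278 ± 3223 in TLR3-MSC and 6856 ± 1070.2 in STING-MSC joints (normalized count, SD, n = 5). The STING-MSC joints again lay in the lower part of the control range, but the log2 difference of -0.34 was within the spread (limma p = 0.272, exact p = 0.286). Calcr (chr6:3685680-3764715, ENSMUSG00000023964) encodes the calcitonin receptor of mature osteoclasts and ranged over 10.2 to 26.4 in control, 3.30 to 43.8 in MSC, 7.25 to 38.8 in TLR3-MSC and 5.00 to 19.7 in STING-MSC joints. Its log2 differences for STING-MSC were -0.82 against control, -0.82 against MSC and -0.98 against TLR3-MSC joints, the last the largest fitted difference of a member in that comparison (exact p = 0.0873, 0.254 and 0.0952). The error of these Calcr differences was 0.56, and 2 of 5 STING-MSC joints were below every control joint.

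**Figure D3:**
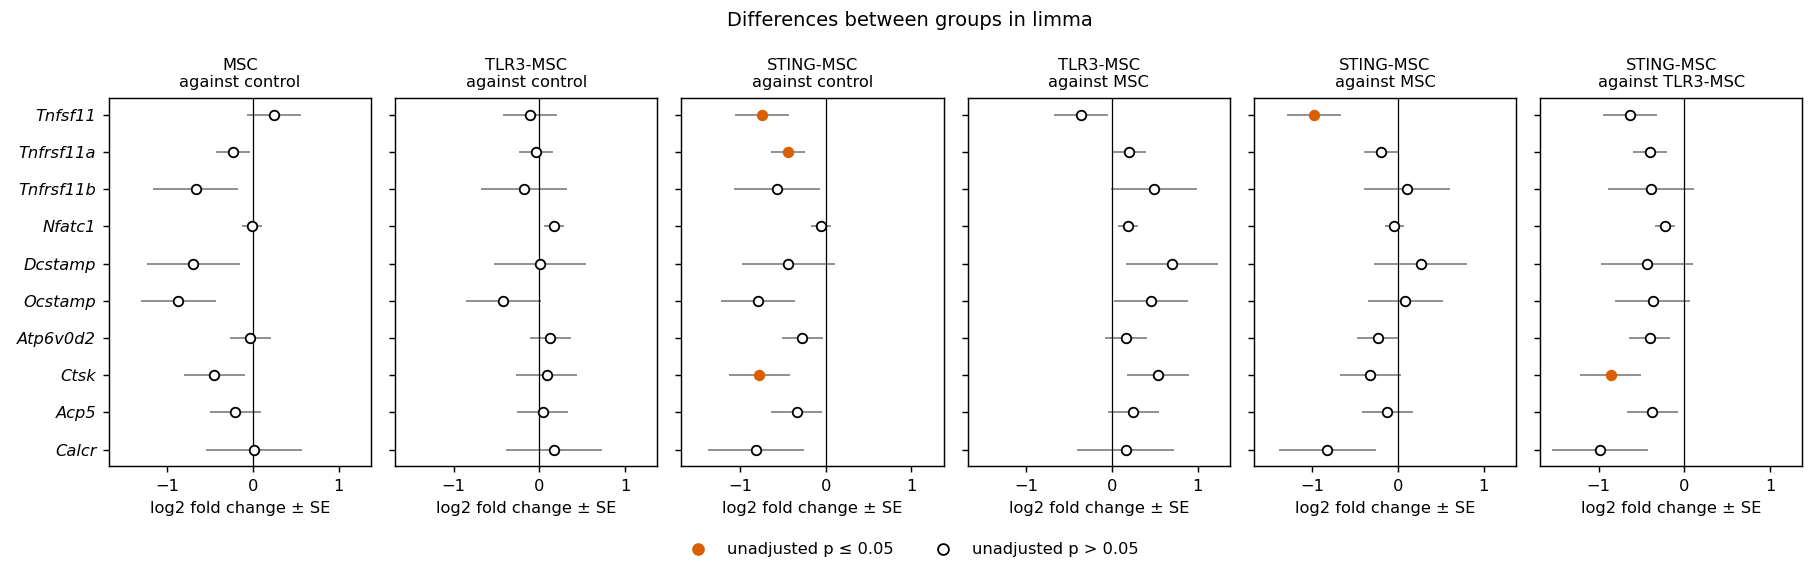
Log2 fold changes of the 10 members in the 6 comparisons, with bars of 1 SE from limma and a line at 0. All 10 points lie below 0 for STING-MSC against control and for STING-MSC against TLR3-MSC, while for TLR3-MSC against control they lie on both sides of 0, from -0.42 to 0.17.

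The other comparisons had no such common sign. Against control, 8 of 10 members were lower in MSC joints (median -0.22, -0.04 over all genes), where 57.7% of all genes were lower, and 4 of 10 in TLR3-MSC joints (median 0.02, -0.01 over all genes), where 52.1% were. TLR3-MSC joints were lower than MSC joints for 1 of 10 members, Tnfsf11, where 42.6% of all genes were lower. STING-MSC joints were lower than MSC joints for 7 of 10 members, where 44.5% of all genes were lower, and the exceptions were Tnfrsf11b (0.11), Dcstamp (0.26) and Ocstamp (0.08). The last count depended on the method, with 7 lower after quantile normalization and 10 lower in edgeR and in DESeq2. For STING-MSC against control and against TLR3-MSC all 10 were lower in each of these methods, and with any joint left out at least 9 of 10 were lower against control and 10 of 10 against TLR3-MSC. The other counts moved more when a joint was left out. The number lower ranged from 1 (without control joint 4) to 9 (without control joint 5) for TLR3-MSC against control, from 6 to 9 for MSC against control, from 1 to 3 for TLR3-MSC against MSC, and from 5 (without MSC joint 2) to 9 for STING-MSC against MSC.

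The members also differed in how much the joints of a group spread. The median coefficient of variation over the 10 members was 42.0% in control, 49.9% in MSC, 34.1% in TLR3-MSC and 17.0% in STING-MSC joints. The lowest in STING-MSC joints was that of Nfatc1, at 3.24%, and the highest that of Calcr, at 55.0%. Outside the members, the coefficient was lower in STING-MSC than in control joints for Mmp14 (13.5% against 68.3%) and higher for Nfkb1 (11.6% against 7.03%). These values describe 5 joints per group and were not tested. The spread over all genes was not computed, so a narrow spread is not shown to be particular to the members.

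Across the 20 joints, after the mean of each group was subtracted, all 45 pairs of members had a Pearson's r above 0, with a median of 0.62. By a permutation test within groups, 26 of the 45 pairs passed a Benjamini-Hochberg adjusted p of at most 0.05 for r and 28 for Spearman's rho. The share of other gene pairs that would pass was not computed. Tnfsf11 passed with Ctsk at r = 0.60 but ranked 2115 of all genes in likeness to Ctsk, so an r of this size was not particular to the members. No pair changed sign without the 2 joints farthest from the median. Acp5 and Ocstamp were the closest pair (r = 0.96, rho = 0.94, permutation p = 1e-05, the smallest that 100000 permutations can give, adjusted p = 0.00022, and r = 0.94 without the 2 joints). Acp5 and Dcstamp followed (r = 0.87, rho = 0.91, adjusted permutation p = 0.00022, r = 0.88 without the 2 joints). These pairs join Acp5 with both fusion genes. Ctsk varied with Acp5 (r = 0.82, rho = 0.90, adjusted permutation p = 0.0021, r = 0.76 without the 2 joints) and with the receptor Tnfrsf11a (r = 0.84, rho = 0.79, adjusted permutation p = 0.0017, r = 0.79 without the 2 joints).

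Another close pair was Tnfrsf11b and Nfatc1 (r = 0.83, adjusted permutation p = 0.00081, r = 0.80 without the 2 joints). The ligand Tnfsf11 passed with 6 of its 9 partners, most closely with Atp6v0d2 (r = 0.78) and less closely with Ctsk (r = 0.60, adjusted permutation p = 0.047, r = 0.50 without the 2 joints). Tnfsf11 and its decoy Tnfrsf11b did not pass (r = 0.51, rho = 0.49, adjusted permutation p = 0.078). Calcr passed with 3 of 9 partners (Tnfrsf11a, Tnfrsf11b and Ctsk). Its r with Dcstamp was 0.02, but rho was 0.40 and r was 0.61 without the 2 farthest joints, so the low r rests on those joints.

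**Figure D4:**
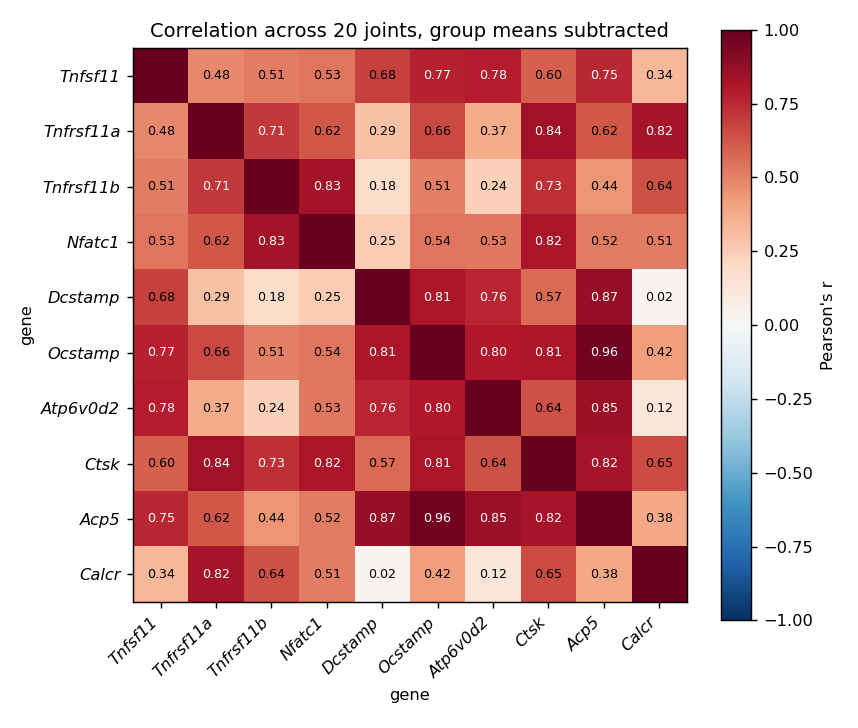
Pearson's r of log2(normalized count + 1) between members across the 20 joints with group means subtracted, coloured from -1 to 1. Every pair is above 0, the block of Dcstamp, Ocstamp, Atp6v0d2 and Acp5 reaches 0.96, and Dcstamp with Calcr is the weakest at 0.02, a value that becomes 0.61 without the 2 farthest joints.

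Of all genes in the table, those most like Ctsk across the 20 joints were Ckb (creatine kinase B, r = 0.96), Glb1 (a lysosomal beta-galactosidase, r = 0.92), Slc4a2 (an anion exchanger of osteoclasts, r = 0.92), Ibsp (bone sialoprotein, r = 0.92) and Bmp8a (r = 0.91), after group means were subtracted. The members ranked from 85 (Tnfrsf11a) to 2364 (Dcstamp) in this order. Those most like Tnfsf11 were Tmem132a (r = 0.88), Chn1 (r = 0.87), Tbx2 (r = 0.86), Fosl2 (r = 0.84) and Irx5 (r = 0.84). Atp6v0d2 ranked 30, Ocstamp 34, Acp5 55 and Dcstamp 191 in likeness to Tnfsf11. Ctsk ranked 577, Nfatc1 1043, Tnfrsf11b 1182, Tnfrsf11a 1525 and Calcr 3159. The order of genes rests on 20 joints, with likeness measured by Pearson's r.

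Marker lists of other cell types in the joint were set beside the members. Within groups, Ctsk varied with the mean level of 7 osteoblast markers (r = 0.81, rho = 0.81, permutation p = 0.00028, adjusted over 24 relations 0.0034, r = 0.71 without the 2 farthest joints) and with that of 5 synovial fibroblast markers (r = 0.72, adjusted permutation p = 0.034, but rho = 0.52 with an adjusted p of 0.17). Tnfsf11 varied with the osteoblast list (r = 0.81, rho = 0.77, adjusted permutation p = 0.0029, r = 0.84 without the 2 joints) and with 4 osteocyte markers (r = 0.78, rho = 0.69, adjusted permutation p = 0.0051, r = 0.73). Neither passed with the 9 macrophage and monocyte markers (r = 0.14 for Ctsk and 0.31 for Tnfsf11), and the other relations did not pass either.

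The summed osteoblast level was 152479 to 552105 normalized counts in control and 116768 to 225018 in STING-MSC joints, and that of synovial fibroblast markers 157086 to 556554 and 44082 to 202395. None of the 7 osteoblast, 5 synovial fibroblast or 4 osteocyte markers passed the unadjusted threshold in any comparison by limma, and none was at 0 in any joint. The osteoblast and synovial fibroblast counts depended on the method in some comparisons. These were STING-MSC against control, STING-MSC against TLR3-MSC, TLR3-MSC against control and TLR3-MSC against MSC. The counts that follow are for STING-MSC against control. With only the 2 groups compared, 4 of 5 synovial fibroblast markers passed, where 15.5% of all genes did. In DESeq2, 3 of 5 synovial fibroblast and 3 of 7 osteoblast markers passed, where 15.2% of all genes did. In edgeR, 2 of each of these lists passed, where 13.3% of all genes did. The median log2 difference between STING-MSC and control joints was -0.32 over the osteoblast, -0.70 over the synovial fibroblast, 0.06 over the osteocyte and 0.02 over the macrophage and monocyte markers, against -0.50 over the members. Of 7 marrow neutrophil markers, 4 were higher in MSC and 5 in STING-MSC than in control joints at the unadjusted threshold. Of all genes, 5.64% and 6.54% were higher in these comparisons. S100a8 was higher by 0.65 and 0.62 (limma FDR = 0.319 and 0.310). Of the macrophage and monocyte markers, 2 were higher in STING-MSC than in control joints (Ccr2 by 0.47 and Ly6c2 by 0.49). None of these markers passed an FDR of at most 0.05 in limma. The part of the cell makeup of each joint in the member differences was not tested. Keratinocyte markers, which belong to skin, were the only ones at 0 in some joints. Of these, 2 of 4 were lower in STING-MSC than in TLR3-MSC joints, where 1.78% of all genes were lower. The log2 differences were -5.01 ± 1.91 for Krt5 and -2.39 ± 1.10 for Krt10 (SE, limma FDR = 0.890 for both). The summed keratinocyte counts ran from 98.6 to 17925 in TLR3-MSC joints, with a median of 138, and from 19.2 to 122 in STING-MSC joints. Of 4 adipocyte markers, Plin1 was higher in TLR3-MSC than in control joints (1.04), where 2.68% of all genes were higher. No chondrocyte, erythroid, B cell, T and NK cell or muscle marker passed in any comparison by limma.

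The other genes of the pathway were taken from lists of RANK and M-CSF signalling, osteoclast inhibitors, resorption machinery and inducers of RANKL. Of 23 signalling genes, 4 were higher and 1 lower in STING-MSC than in control joints at the unadjusted threshold, where 12.2% of all genes passed. The lower one was Fos, a subunit of the AP-1 factor needed for osteoclast formation, with means of 1091 ± 358 in control, 1123 ± 496 in MSC, 642 ± 318 in TLR3-MSC and 382 ± 149 in STING-MSC joints (normalized count, SD, n = 5). Fos differed by -1.54 ± 0.38 between STING-MSC and control (limma FDR = 0.274) and by -1.53 between STING-MSC and MSC joints (limma FDR = 0.568). In TLR3-MSC joints it also passed the unadjusted threshold, at -0.88 against control and -0.87 against MSC joints (limma FDR = 1.00 and 0.978). Fos is an immediate-early gene that also responds to handling of tissue. Among the higher ones were Tyrobp (0.42), an adaptor that costimulates RANK, Spi1 (0.40), the myeloid factor PU.1, and the kinase Syk (0.43), all of which neutrophils also express.

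In MSC joints 4 signalling genes were higher than in control joints and none lower (Tyrobp by 0.49, Spi1 by 0.37, Tec by 0.29 and Fcer1g by 0.35), where 8.55% of all genes passed. For TLR3-MSC against MSC 2 passed, where 3.88% of all genes did, with Prdm1, a repressor of osteoclast inhibitors, higher by 0.45. For STING-MSC against MSC 2 passed, where 4.94% of all genes did, with Nfkb2 at -0.18. For STING-MSC against TLR3-MSC none passed. None of the 8 osteoclast inhibitors passed in any comparison by limma.

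Of 20 genes of the resorption machinery, 2 passed for STING-MSC against control, both lower, where 12.2% of all genes passed and 5.69% were lower, and none passed elsewhere by limma. A count of 2 of 20 is near that share. The median log2 fold change over the 20 genes in this comparison was -0.05, with a range from -1.43 to 0.23. Mmp14, a membrane-bound collagenase also made by fibroblasts and osteoblasts, had means of 12914 ± 8817 in control and 3928 ± 532 in STING-MSC joints and differed by -1.43 ± 0.48 (limma FDR = 0.315). Siglec15, a receptor of osteoclast precursors, had means of 110.1 ± 36.3 and 60.1 ± 24.6 and differed by -0.90 ± 0.40 (limma FDR = 0.383). Neither passed after adjustment over all genes.

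Of 15 inducers of RANKL and their receptors in the table, 3 were higher in MSC than in control joints, where 8.55% of all genes passed and 5.64% were higher. Il1b, a cytokine that raises RANKL in stromal cells, had means of 549.6 ± 109 in control, 1084 ± 395 in MSC, 557 ± 95.4 in TLR3-MSC and 590.4 ± 79.2 in STING-MSC joints (normalized count, SD, n = 5). It differed by 0.93 ± 0.20 between MSC and control (limma FDR = 0.104), by -0.90 between TLR3-MSC and MSC and by -0.81 between STING-MSC and MSC joints. The MSC range of 726 to 1639 did not overlap the control, TLR3-MSC or STING-MSC range, and a relation of Il1b to Tnfsf11 was not tested. The interleukin-6 receptor gene Il6ra was higher than in control joints in MSC (0.51), TLR3-MSC (0.48) and STING-MSC joints (0.55), and Il17ra likewise (0.34, 0.32 and 0.44). Il11, a bone-resorbing cytokine of the interleukin-6 family, was lower in STING-MSC than in control joints with a log2 difference of -1.98 (limma FDR = 0.374), with means of 10.8 ± 7.17 and 55.9 ± 49.1. Tnfrsf1a was lower in STING-MSC than in MSC joints (-0.28), and for STING-MSC against TLR3-MSC none of the 15 passed in limma.

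**Figure D5:**
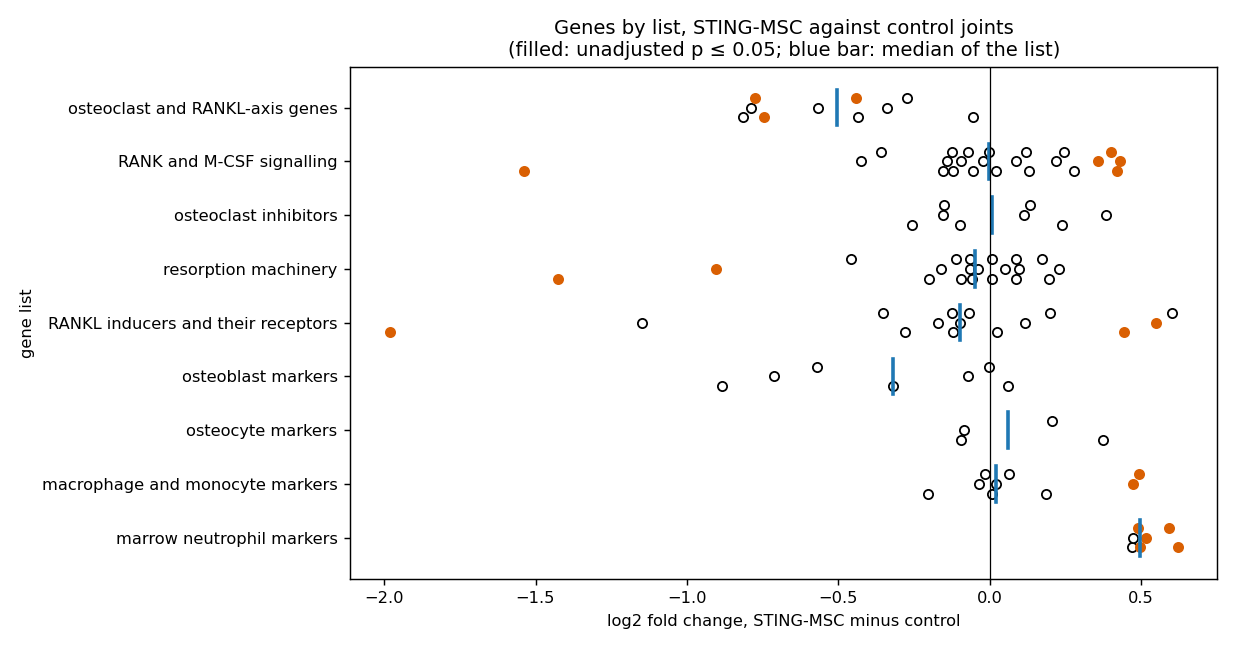
Log2 fold changes for STING-MSC against control joints of the members and of the genes of pathway and cell type lists. Each point is 1 gene, filled at an unadjusted limma p of at most 0.05, with a bar at the median of each list and a line at 0. The osteoclast inhibitors have no filled point, and the resorption machinery has 2, both lower. The median was -0.05 over the resorption machinery and -0.003 over RANK and M-CSF signalling. It was 0.008 over the osteoclast inhibitors and -0.10 over the RANKL inducers and their receptors, against -0.50 over the members.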

How the data were processed

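Knee joints were sequenced in bulk (20 joints, 5 biological replicates per group, each a different mouse, so p-values measure the spread between mice). Groups and replicate numbers came from the sample labels. The column labels also carry a code that is the same within a group and differs between groups. What it stands for is not given, so a group difference cannot be told apart from it. The authors aligned filtered reads to GRCm39 with STAR 2.7.3a and counted them per gene with HTSeq on the Ensembl annotation in Partek Flow. Each library was then divided by a size factor, and what the authors deposited is this normalized signal, not the counts themselves. Whether counting used strand is not given in the sources used here, so reads of overlapping genes may be shared. The methods of the study place collection 8 weeks after surgery, and its results 24 h after injection.

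Dividing by the step of each library gave whole reads (within 0.1 read) for 99.84% to 99.92% of its values and for 100% of those below 1000. Read totals are given for these genes, and low counts carry counting error. The main test was limma 3.58.1 (R 4.3.3, trend option) on log2(normalized count + 1) over 4 groups without a block, in place of DESeq2, which the study used on counts. A minimum mean of 5 removed 0 genes, the lowest mean being 9.40. FDR was adjusted by Benjamini-Hochberg over 14793 genes. Exact two-sided permutation tests of the log2 values covered all splits of 5 joints against 5. Correlations used 100000 permutations within groups. The members and lists were chosen with earlier results of these data known. All members were named, with full statistics where the unadjusted p was at most 0.05 or, in a comparison with none, for the member with the smallest p. From each pathway list at most 4 genes per comparison were named, by p, and from cell type lists those that differed most, and the 5 genes most like Ctsk and Tnfsf11. Il17a and Fgf23 were in a list and not in the table. Promoters came from RefSeq (GRCm38.p6) for 5 members and were located in GRCm39, and exon lengths came from GENCODE. No columns of other samples were present.

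Replicates of a group differed by at least 24.1 per gene in a chi-square of their reads, so none was a duplicate. Tried instead were a pseudocount of 0.5 or 5, a minimum mean of 20 or none, only the 2 groups compared, quantile normalization, edgeR 4.0.16 and DESeq2 1.42.0 on recovered reads, a replicate block, each joint left out, and correlations without subtracting group means. The scripts were tested on simulated data.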

Additional observations from a re-analysis of the deposited data

Results flagged for a closer look

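In MSC joint 5 Dcstamp had a normalized count of 14.25, and the nearest of the other MSC joints had 110.4. The gap was 0.756 of the group's whole range, above Dixon's 95% critical value of 0.71 for 5 samples. This was 1 of 40 groups of 5 joints tested, and chance gives about 1 in 20. The same joint had the lowest Ocstamp, Acp5 and Atp6v0d2 counts of the 20 joints, but the highest Calcr count (43.8). It had 296 genes at 0 reads, and the part of that library in the Dcstamp value was not tested.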

How the results depend on the processing

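The number of members at an FDR of at most 0.05 was 0 in all 6 comparisons under every alternative, and no difference past the unadjusted threshold turned its sign. Of the 60 differences of members (10 members in 6 comparisons), 21 turned their sign under at least 1 alternative, all of them at most 0.26 in size in limma (8 for TLR3-MSC against control, 5 for STING-MSC against MSC, 4 for MSC against control, 3 for TLR3-MSC against MSC and 1, Nfatc1, for STING-MSC against control). Over all genes, DESeq2 called 85 at an FDR of at most 0.05 for STING-MSC against control and 28 for STING-MSC against MSC, where limma and edgeR called 0. For MSC against control limma called 1, edgeR 15 and DESeq2 more than for any other comparison. Counts at the unadjusted threshold were less stable. With DESeq2 on recovered reads the count was 1 for MSC against control (Ocstamp, 0 in limma), 2 for STING-MSC against MSC (Tnfsf11 and Calcr, 1 in limma), 2 for STING-MSC against TLR3-MSC (Ctsk and Tnfrsf11a, 1 in limma) and 2 for any of the 4 groups (1 in limma), and the share of all genes called was then 9.71%, 6.28%, 4.58% and 9.75%. For STING-MSC against TLR3-MSC it was 3 with edgeR (4.09% of all genes) and 5 with only the 2 groups compared (8.5% of all genes). Same-numbered joints are different mice. Their deviations had a mean r of -0.033 over the pairs, though single pairs ran from -0.658 to 0.464, and the numbers were not taken to pair the joints. With the replicate number as a block, the count for STING-MSC against TLR3-MSC was 2 (1.97% of all genes), and no other count of members moved by over 1.5 times. With each joint left out in turn, the count ranged from 0 to 2 for MSC against control, 0 to 0 for TLR3-MSC against control, 0 to 4 for STING-MSC against control (0 without control joint 3 or 4 or STING-MSC joint 2, 4 or 5), 0 to 2 for TLR3-MSC against MSC (2 without MSC joint 2 or TLR3-MSC joint 4), 1 to 3 for STING-MSC against MSC (3 without MSC joint 4), 0 to 4 for STING-MSC against TLR3-MSC (0 without TLR3-MSC joint 3 or 5, 4 without TLR3-MSC joint 4) and 0 to 2 for any of the 4 groups. Pairs of members past the adjusted threshold numbered 26, against 32 without subtracting group means and 21 after quantile normalization, and r without the 2 farthest joints was computed with no new permutation p. Depth limits mainly Calcr and Dcstamp in MSC joint 5, with 4 to 46 and 14 reads. The causes of these changes were not tested.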
